A study of Homo sapiens
Mus musculus and Mus musculus and Homo sapiens with 16 samples.

Results

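Monocultured REC-1 cells (Sep) were compared with the REC-1 cells found in suspension in cocultures with MS-5 stromal cells (Susp), using gene counts of 8 of the 16 RNA-seq libraries of the study. The members are all human genes of these 8 libraries, 4 Sep and 4 Susp, chosen by the sample labels and by no measured value. The comparison asks how lymphoma cells that are not attached after 24 h beside stroma differ from lymphoma cells grown alone. REC-1 is a cell line from a human mantle cell lymphoma (MCL), a B-cell malignancy driven by cyclin D1, and MS-5 is a mouse bone marrow stromal line. The labels give neither group a treatment or engineered allele and name the same serum-containing medium (αMEM-glutamax) for monoculture and coculture, with RNA taken after 24 h. The groups differed in the presence of MS-5 in the dish. They also differed in selection, since Susp is the unattached part of a coculture and Sep was not divided by attachment. These differences cannot be told apart in this design. Each group is 1 cell line, the ligands offered by the stroma are mouse proteins, and the label of the Susp fraction records where the cells were at harvest, not whether they had touched MS-5 earlier. The study describes its replicates as independent experiments, but the labels do not name separate cultures, so p-values measure the spread between these libraries. The 4 libraries of cells that had attached to the stroma (Adh) entered the same model and are given beside the named genes.

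Stroma supports malignant B cells through soluble factors and through contact. Bone marrow stromal cells secrete chemokines such as CXCL12 and cytokines such as IL-7, and mature B cells answer such signals with programmes for migration, survival and antigen presentation. S1P receptors and the G-alpha-13 pathway position B cells within lymphoid tissue, costimulatory ligands such as CD86 and CD70 let B cells engage T cells, and Fc receptor-like proteins tune signalling from the B cell receptor (BCR).

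The Susp libraries were deeper than the Sep libraries, with 15000927 to 21467832 counted fragments (median 15898760.5) against 9325412 to 12597891 (median 12106117.5). Genes encoding B cell markers were abundant in both groups, except that CD5, which most MCL cells carry, was under 1 CPM (counts scaled to 1e6 of the normalised library size). The summed level of 25 stromal fibroblast markers was 23.5 to 30.9 CPM in Sep and 23.1 to 25.6 CPM in Susp libraries, with PDGFRA, PDGFRB, LUM, THY1 and CXCL12 at 0 in every library of both groups. Summed T cell markers were 5.10 to 7.18 CPM in Sep and 7.25 to 8.70 CPM in Susp libraries, mostly from CD3E at 3.27 and 4.77 CPM, with CD2 at 0 in both. Susp replicate 2 stood apart from the other Susp libraries: the chi-square statistic per degree of freedom over genes was 54.1 to 59.0 against each of them, while pairs of the other 3 gave 6.94 to 10.4 and pairs of Sep libraries 4.21 to 21.0. Results that change without it are given with their values.

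Of 12861 tested genes, 94 (0.731%) differed between Susp and Sep cells, 55 (0.428%) higher and 39 (0.303%) lower in Susp cells. These shares of all tested genes stand beside the counts of called list members given below. Calling a gene took both an adjusted p-value no higher than 0.05 and a change of 1.5-fold or more, in edgeR's quasi-likelihood F-test with Benjamini-Hochberg adjustment over all tested genes. Most changes were small: 40 of the higher and 28 of the lower genes changed by less than 2-fold, the median fold was 1.78 among the higher and 1.71 among the lower genes, and those at 3-fold or more were 5 higher (TNFRSF18, EMILIN2, LRRC32, ARHGEF4 and CD86) and 3 lower (S1PR2, ELK3 and the noncoding RP11-829H16.3). The Susp and Sep libraries of the called genes did not overlap in CPM, which held for 11.3% of all tested genes. The rule that named the largest rises and falls also required it. Its mention for single genes below therefore adds nothing to their calls. Unadjusted p-values (edgeR) were under 0.05 for 16.7% of genes, 1199 of them higher and 946 lower in Susp cells. Protein-coding genes made up 89 of the calls. Without Susp replicate 2, 80 genes were called (45 higher, 35 lower), of which 68 were among the 94. Leaving out Susp replicate 1 raised the lower calls to 61, and leaving out Sep replicate 1 or 3 reduced the higher calls to 36 or 35. Because bulk RNA was measured, a lower level per cell and a smaller share of cells with the transcript cannot be told apart.

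**Figure D1:**
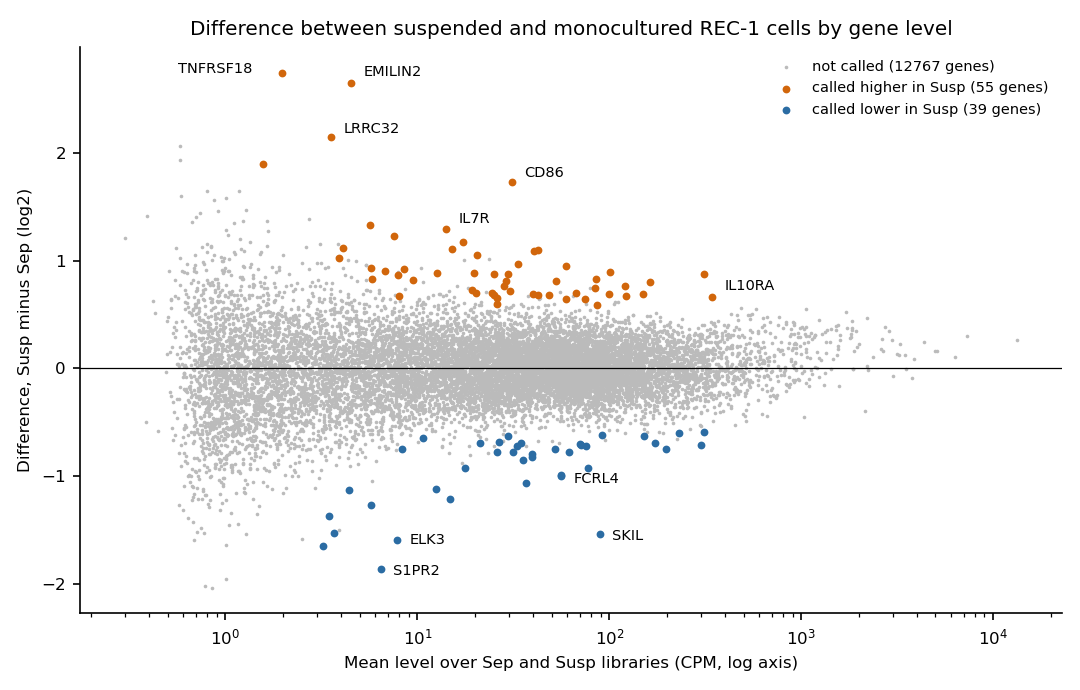
Difference between Susp and Sep cells (log2, y axis) against the mean level over the 8 libraries (CPM, log axis), 1 point per tested gene. The 55 genes called higher and the 39 called lower are coloured, with TNFRSF18, EMILIN2 and LRRC32 highest among the called genes and S1PR2 lowest.

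The genes called higher had short and GC-rich exons, at a median of 3164 bases and 56.1% GC, against 6345 bases and 46.5% for the genes called lower and 5171 bases and 47.4% for all tested genes. In Susp replicate 2, log2 CPM relative to the other Susp libraries fell by 0.12 per doubling of exon length. It rose by 0.20 per 10 points of GC content. The other Susp libraries, each compared in the same way and thus partly with Susp replicate 2, had slopes on length of 0.03 to 0.04. Their slopes per 10 points of GC content were -0.19, 0.02 and -0.04 for Susp replicates 1, 3 and 4. Sep replicate 1 had a slope of -0.27 per 10 points of GC content. With each library corrected for both trends, a setting chosen after seeing the data, 113 genes were called (57 higher, 56 lower), 69 of them among the 94. Where a gene described below lost its call under this correction, that is stated beside it. Positions below are those of GENCODE 44 on GRCh38.

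**Figure D2:**
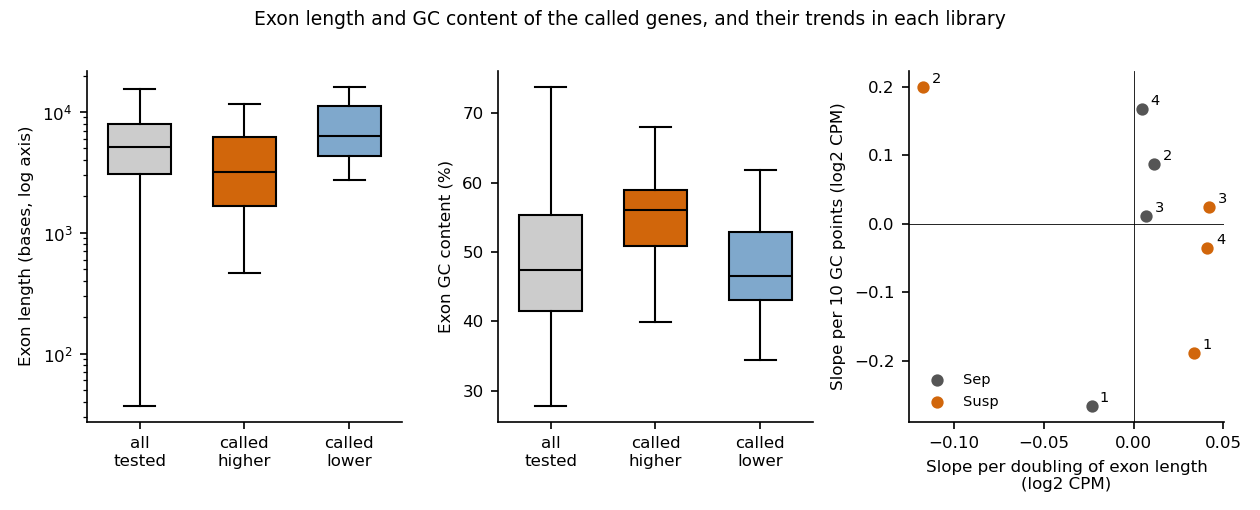
Exon length (left, bases, log axis) and exon GC content (middle, %) of all tested, called higher and called lower genes, as median, quartiles and whiskers to 1.5 interquartile ranges, and the trend of each Sep and Susp library with both (right; numbers are replicates). The called higher genes lie at shorter length and higher GC than all tested genes, and Susp replicate 2 lies apart on the length axis.

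CD86, CD70 and TNFSF9 rose among the costimulatory ligands. Of 13 tested genes for costimulatory and inhibitory ligands, 3 were called higher and none lower, beside 0.428% called higher among all tested genes, with a median log2 difference of 0.41 against -0.01 over all genes. CD86 (ENSG00000114013, chromosome 3, 122055362 to 122121139) encodes a ligand of CD28 and CTLA-4 on T cells. Its level was 16.4, 12.7, 16.01 and 12.4 CPM in Sep replicates 1 to 4 and 48.3, 44.8, 49.3 and 48.4 CPM in Susp replicates 1 to 4. Every Susp library was thus far above every Sep library, and the mean rose from 14.4 ± 2.12 CPM (SD, n = 4) to 47.7 ± 1.98 CPM (SD, n = 4), by 3.32-fold (log2 1.73, SE 0.13, edgeR adjusted p = 2.59e-06). CD70 (ENSG00000125726, chromosome 19, 6583183 to 6604103), the ligand of CD27, was at 56.7, 73.2, 72.5 and 79.7 CPM in the Sep and at 102, 171, 129 and 121 CPM in the Susp libraries. The groups did not overlap, Susp replicate 2 was highest, and the log2 difference was 0.89, SE 0.16, edgeR adjusted p = 0.00812. TNFSF9, the ligand of 4-1BB, a costimulatory receptor of T cells, rose by 1.85-fold, from 8.88 ± 1.37 CPM (SD, n = 4) to 16.4 ± 3.93 CPM (SD, n = 4) (log2 0.88, SE 0.18, edgeR adjusted p = 0.0231). That call was lost without Sep replicate 1, 2 or 3 or Susp replicate 3, with differences of 0.72 to 1.003 and adjusted p-values up to 0.0991 over the leave-one-out fits (edgeR). CD80, the other ligand of CD28, was at 2.75 ± 0.477 CPM (SD, n = 4) and 2.16 ± 1.01 CPM (SD, n = 4) and was not called (log2 -0.34, 95% interval -1.07 to 0.38), and CD40 and CD83 differed by 0.04 and -0.20.

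Genes for secreted signals and their receptors changed in a few members each. CXCL9 and CXCL10, neighbouring chemokine genes known as interferon-gamma-induced ligands of CXCR3, were the 2 genes called of 9 tested chemokine genes. The 250 bases upstream of their transcript starts are shown because both hold the core of an interferon response element (GAAA, a pair of any bases, then GAAA), in capitals, and that of CD86 is shown as the call with the smallest adjusted p-value, without such a match; these genes were chosen after their values were seen (GRCh38, written 5′ to 3′ on the strand of the gene; CXCL9, minus strand, chr4:76007510-76007759; CXCL10, minus strand, chr4:76023498-76023747; CD86, plus strand, chr3:122055112-122055361).
CXCL9: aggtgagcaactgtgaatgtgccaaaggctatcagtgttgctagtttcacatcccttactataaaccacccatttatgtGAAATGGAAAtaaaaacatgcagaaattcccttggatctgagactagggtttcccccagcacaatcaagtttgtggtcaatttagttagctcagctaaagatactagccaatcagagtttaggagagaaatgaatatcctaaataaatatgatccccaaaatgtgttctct
CXCL10: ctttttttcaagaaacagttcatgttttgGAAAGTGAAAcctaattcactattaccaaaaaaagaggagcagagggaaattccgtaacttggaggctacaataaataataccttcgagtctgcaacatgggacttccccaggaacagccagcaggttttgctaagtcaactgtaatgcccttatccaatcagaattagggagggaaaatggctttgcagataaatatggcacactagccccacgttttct
CD86: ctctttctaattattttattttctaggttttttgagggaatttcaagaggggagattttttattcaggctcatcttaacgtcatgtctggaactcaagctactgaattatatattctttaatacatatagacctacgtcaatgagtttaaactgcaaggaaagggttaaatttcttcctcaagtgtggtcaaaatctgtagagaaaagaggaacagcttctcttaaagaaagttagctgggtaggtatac

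In CXCL9 the match begins 171 bases before the start and in CXCL10 221 bases before it. Searched on both strands from 250 bases before to 50 bases after the start, the motif was found for 6 of 55 called higher genes (10.9%; CXCL9, CXCL10, BST2, IFITM1, TNFSF9 and EMP3), 2 of 39 called lower genes (5.13%; CIITA and CSF1) and 3.11% of the 12756 tested genes with a window. These are matches of letters, with no test and no measurement of binding. Matches of different motifs may share bases. TTCNNNGAA, the core of STAT sites, was found for 3.64% of called higher, 7.69% of called lower and 5.94% of all genes, TGGGAA, bound by RBPJ, for 23.6%, 17.9% and 20.9%, and TGACGTCA, the cAMP response element, for 1.82%, 7.69% and 3.3%.

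CXCL9 (ENSG00000138755, chromosome 4, 76001275 to 76007509) was measured at 8.98, 10.9, 9.83 and 8.93 CPM in Sep and 20.4, 18.8, 20.5 and 23.5 CPM in Susp libraries, a log2 difference of 1.11, SE 0.14, edgeR adjusted p = 0.00056. For CXCL10 (ENSG00000169245, chromosome 4, 76021118 to 76023497) the values were 16.5, 14.6, 11.5 and 10.4 CPM and 30.9, 31.3, 23.8 and 24.5 CPM, a log2 difference of 1.05, SE 0.16, edgeR adjusted p = 0.00237. Both rose to a similar extent, by 2.16-fold and 2.08-fold, with no overlap between groups. They belong to a list of interferon-gamma-type chemokines and GTPases, of which 9 genes were tested. In that list these 2 were called higher and CIITA was called lower (log2 -0.82), with a median of 0.06. Among all tested genes 0.428% were called higher and 0.303% lower. The wider list of interferon-answering genes held few calls: of 38 tested interferon-stimulated genes 3 were called higher and none lower, and their median log2 difference was -0.04. IRF1, a transcription factor that relays interferon signals, differed by 0.06 (95% interval -0.17 to 0.29). The 3 called genes were IFITM1, IFITM2 and BST2, membrane proteins that restrict enveloped viruses, at log2 1.03, 0.69 and 0.68. Susp replicate 2 was the highest library for each, with BST2 at 69.8 CPM there and 46.1 to 47.5 CPM in the other Susp libraries. Without Susp replicate 2 none of the 38 was called, with differences of 0.92 for IFITM1, 0.56 for IFITM2 and 0.51 for BST2, and with the correction for GC and length also none (0.77, 0.45 and 0.44). IFITM1 was also not called without Sep replicate 2 or 3 or Susp replicate 3 or 4 (adjusted p up to 0.11, edgeR), nor BST2 without Sep replicate 1, 3 or 4 (adjusted p up to 0.108, edgeR). IFITM1 and IFITM2 are close paralogs, and only uniquely aligned fragments were counted.

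Cytokine receptors gave 2 higher and no lower calls of 24 tested, beside 0.428% called higher among all tested genes. IL7R (ENSG00000168685, chromosome 5, 35852695 to 35879603), the receptor chain for IL-7, was at 8.98, 6.69, 10.9 and 6.38 CPM in the Sep libraries and 20.6, 16.3, 20.3 and 23.03 CPM in the Susp libraries. It rose in every Susp library over every Sep library, by 2.45-fold (log2 1.29, SE 0.17, edgeR adjusted p = 0.000772). IL10RA, which encodes the ligand-binding chain of the IL-10 receptor, was far more abundant, at 30.2 RPKM (CPM per kilobase of exon) in Sep cells against 1.37 RPKM for IL7R. Its levels were 250.4, 255, 267 and 293 CPM and 399, 416, 457 and 417 CPM, a 1.59-fold rise (log2 0.67, SE 0.084, edgeR adjusted p = 0.00056). The partner chains differed less and were not called, with log2 differences of 0.43 for IL2RG and 0.40 for IL10RB. Among 7 tested cytokine genes CSF1, the growth factor of macrophages, was called lower (log2 -0.63, SE 0.14, edgeR adjusted p = 0.0454), but in 7 of 8 leave-one-out fits it was not (all but the fit without Susp replicate 1), with differences of -0.68 to -0.54 and adjusted p-values up to 0.182 (edgeR).

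The furthest rises were in genes at low level. TNFRSF18 (ENSG00000186891, chromosome 1, 1203508 to 1206592) encodes GITR, a TNF receptor family member known from regulatory T cells. It was at 0.315, 0.335, 0.314 and 1.04 CPM in Sep and 1.59, 6.02, 3.38 and 2.82 CPM in Susp libraries, a 6.69-fold difference (log2 2.74, SE 0.46, edgeR adjusted p = 0.0059). Sep replicate 4 was the highest Sep library and Susp replicate 2 the highest Susp library, and the log2 difference was 3.39 without Sep replicate 4, 2.33 without Susp replicate 2 and 2.15 with the correction for GC and length and without Susp replicate 2. EMILIN2 (ENSG00000132205, chromosome 18, 2847006 to 2916003), an extracellular matrix glycoprotein, went from 1.102, 1.67, 0.837 and 1.28 CPM to 8.63, 8.36, 7.25 and 6.98 CPM, which is 6.28-fold (log2 2.65, SE 0.23, edgeR adjusted p = 1.46e-05).

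LRRC32 (ENSG00000137507, chromosome 11, 76657524 to 76670747) encodes GARP, which holds latent TGF-beta on the cell surface, and had 0.945, 2.26, 0.837 and 1.12 CPM in Sep and 7.04, 5.901, 5.75 and 4.43 CPM in Susp libraries (log2 2.14, SE 0.34, edgeR adjusted p = 0.00345). Sep replicate 2 was the highest Sep library for LRRC32, still under every Susp library. RIN3, a guanine nucleotide exchange factor for RAB5 proteins, rose by 2.52-fold from 3.19 ± 0.795 CPM (SD, n = 4) (log2 1.33, SE 0.23, edgeR adjusted p = 0.00667).

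Of 16 tested genes of S1P receptors and G-alpha-13 signalling, 2 were called lower and none higher, beside 0.303% called lower among all tested genes. S1PR2 (ENSG00000267534, chromosome 19, 10221433 to 10231331), the S1P receptor that acts through G-alpha-13 to hold germinal centre B cells in place, was at 11.1, 9.54, 9.42 and 10.3 CPM in Sep replicates 1 to 4 and at 2.12, 3.81, 2.71 and 2.42 CPM in Susp replicates 1 to 4. The groups were far apart, and the mean fell by 3.63-fold (log2 -1.86, SE 0.22, edgeR adjusted p = 0.000325), the largest fall among the 94 calls. Its upstream sequence is shown because it holds TGACGTCA, the palindrome of a cAMP response element, in capitals at its first bases (GRCh38, minus strand, chr19:10231332-10231581).
S1PR2: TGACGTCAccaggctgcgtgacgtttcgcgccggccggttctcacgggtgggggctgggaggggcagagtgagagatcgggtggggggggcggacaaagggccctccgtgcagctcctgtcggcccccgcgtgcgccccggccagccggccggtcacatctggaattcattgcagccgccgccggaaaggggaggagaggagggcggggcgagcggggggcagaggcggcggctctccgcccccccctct

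The same palindrome was found for SKIL and LTBP1, which fell, and for IL10RA, which rose. S1PR1, the receptor that draws lymphocytes towards S1P, was at 139, 138, 146 and 152 CPM and 138, 126, 164 and 158 CPM, with a difference of 0.03 (95% interval -0.16 to 0.22). GNA13 (-0.23, 95% interval -0.52 to 0.05) and P2RY8 (-0.09, 95% interval -0.37 to 0.18), the G-alpha-13 subunit and a receptor coupled to it, were not called either. RGS13 (ENSG00000127074, chromosome 1, 192636138 to 192660311), which shortens signalling by G proteins in B cells, fell from 42.8, 35.5, 41.2 and 39.6 CPM to 25.8, 22.4, 21.5 and 23.4 CPM (log2 -0.77, SE 0.10, edgeR adjusted p = 0.0009). It was the only call among 13 tested RGS genes. CXCR4, the receptor of the stromal chemokine CXCL12, was at 50.5 ± 3.36 CPM (SD, n = 4) in Sep and 41.1 ± 2.06 CPM (SD, n = 4) in Susp cells and was not called (log2 -0.30, edgeR adjusted p = 0.17).

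Among 34 tested TGF-beta and BMP genes, SKIL and LTBP1 were called lower and none higher, beside 0.303% called lower among all tested genes. The median log2 difference of the list was -0.14. SKIL (ENSG00000136603, chromosome 3, 170357342 to 170396835) encodes SnoN, a repressor of SMAD proteins that TGF-beta both degrades and induces. Its level was 158, 134, 119 and 119.5 CPM in the Sep and 58.9, 28.5, 44.2 and 52.04 CPM in the Susp libraries, a fall by 2.898-fold (log2 -1.53, SE 0.17, edgeR adjusted p = 0.000271). Susp replicate 2 was the lowest library and the others stood at 44.2 CPM or more, well under the lowest Sep library. LTBP1, which binds latent TGF-beta in the matrix, fell from 45.5 ± 5.01 CPM (SD, n = 4) to 25.2 ± 4.59 CPM (SD, n = 4) (log2 -0.85, SE 0.13, edgeR adjusted p = 0.00237). SMAD7, the inhibitory SMAD, was low, at 2.11 ± 0.361 CPM (SD, n = 4) and 1.02 ± 0.308 CPM (SD, n = 4), and was not called (log2 -1.05, edgeR adjusted p = 0.17). The receptor genes TGFBR1 and TGFBR2 differed by -0.13 and 0.12 and TGFB1 by 0.31, none of them called.

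ELK3 (ENSG00000111145, chromosome 12, 96194375 to 96269824), an ETS factor downstream of ERK, was at 15.2, 11.1, 11.5 and 9.41 CPM in Sep and 5.11, 3.81, 3.19 and 3.63 CPM in Susp libraries and fell by 3.01-fold (log2 -1.59, SE 0.21, edgeR adjusted p = 0.000772). Sep replicate 1 was highest, and no Susp library reached the lowest Sep library. In the same list of 17 tested ERK feedback genes DUSP5, a phosphatase of nuclear ERK, was called higher (log2 0.72, SE 0.15, edgeR adjusted p = 0.024). That call was lost without Sep replicate 2, 3 or 4 or Susp replicate 2 or 4, with adjusted p-values up to 0.113 (edgeR), and with the correction for GC and length its difference of 0.54 was under the 1.5-fold minimum. CD69, an early activation marker, was the only call of 24 immediate early and BCR-induced genes, at log2 -0.68, SE 0.13, edgeR adjusted p = 0.0137. It was not called without Sep replicate 1 or Susp replicate 3 or 4 (-0.74 to -0.57 over the leave-one-out fits, adjusted p up to 0.0592, edgeR), nor with the correction for GC and length.

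**Figure D3:**
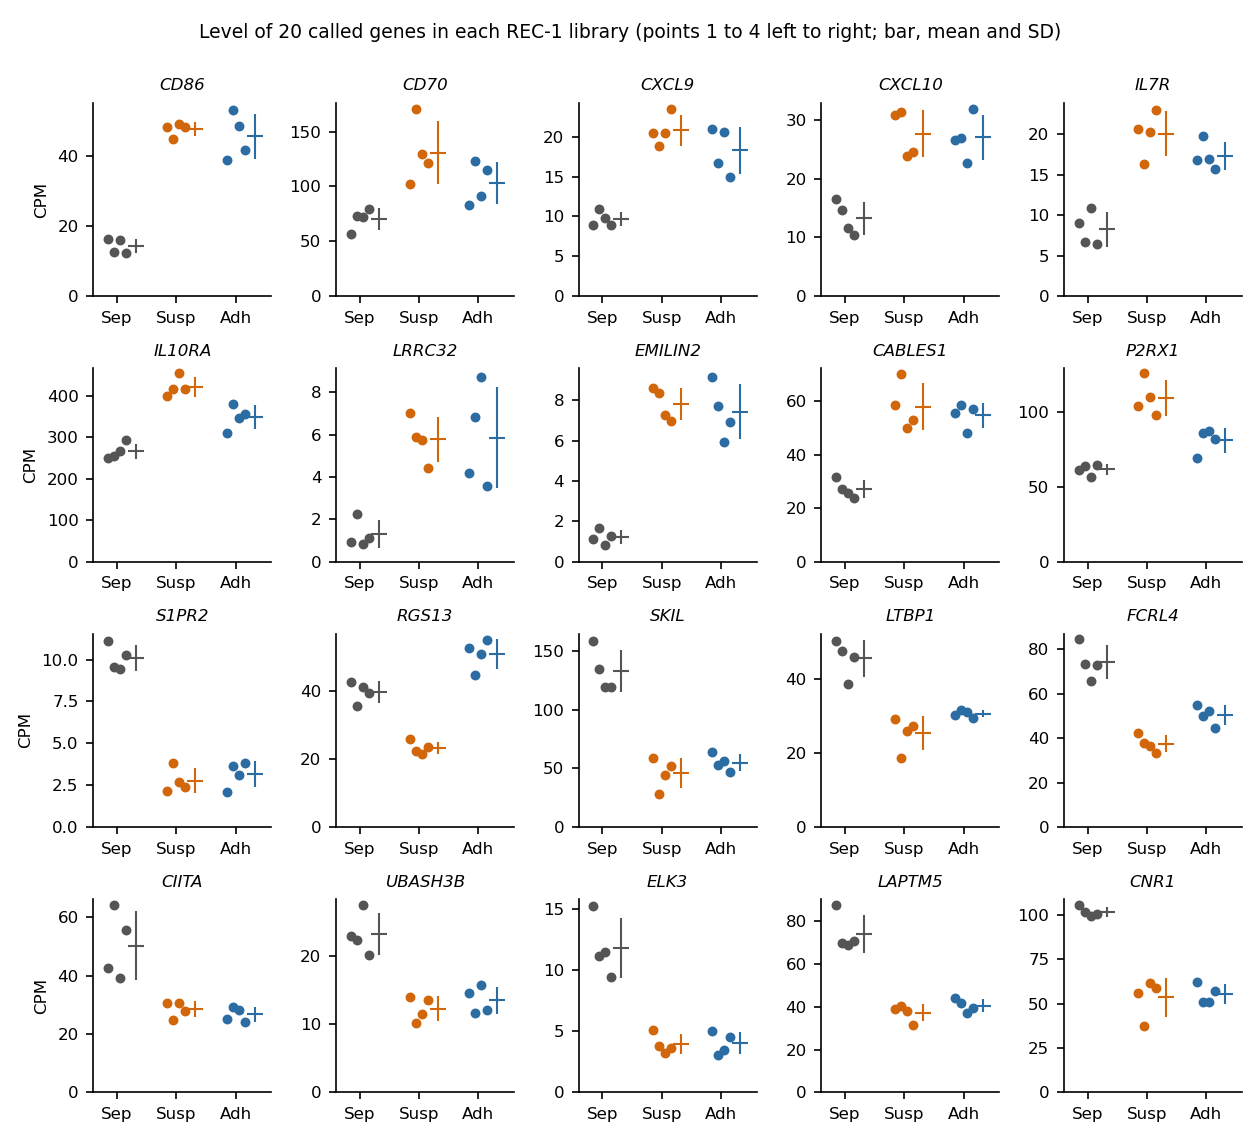
CPM (y axis, from 0) of 20 called genes in the Sep, Susp and Adh libraries, 1 point per library with the mean and SD of the 4 beside them. Susp points lie above Sep points for the 10 genes from CD86 to P2RX1 and below them for the 10 genes from S1PR2 to CNR1, and RGS13 is high in Adh cells.

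FCRL1 to FCRL5 were lower in suspension by the adjusted p-value. Of 10 tested genes of the Fc receptor-like list, FCRL3 and FCRL4 were called lower, and FCRL1, FCRL2 and FCRL5 also passed the adjusted p-value with less than a 1.5-fold change, which makes 5 of 10 lower and 0 higher by the adjusted p-value alone, against 0.412% lower among all tested genes. FCRL4 (ENSG00000163518, chromosome 1, 157573747 to 157598085), an inhibitory receptor of memory B cells, went from 84.6, 73.4, 65.8 and 73.05 CPM to 42.5, 37.7, 36.3 and 33.5 CPM, a fall of 1.98-fold (log2 -0.98, SE 0.11, edgeR adjusted p = 0.000251). FCRL3 was at 418, 400.2, 347 and 340.3 CPM in Sep and 298, 211, 247 and 242 CPM in Susp libraries (log2 -0.59, SE 0.12, edgeR adjusted p = 0.0234), with Susp replicate 2 lowest. It was not called without Sep replicate 1, 2 or 3 or Susp replicate 2, 3 or 4, with differences of -0.69 to -0.53 and adjusted p-values up to 0.107 (edgeR), nor with the correction for GC and length (-0.52). Log2 differences were -0.54 for FCRL1, -0.45 for FCRL2 and -0.52 for FCRL5 (edgeR adjusted p = 0.0376, 0.0186 and 0.0152). Without Susp replicate 2 these were -0.43, -0.46 and -0.46, each still past the adjusted p-value. The other 5 members had positive differences, none called: 0.36 for FCGR2B, the inhibitory IgG receptor, 0.35 for FCRLA, 0.20 for FCER2, 0.18 for FCMR and 0.16 for FCRLB. At an unadjusted p-value under 0.05 the list held 2 genes higher and 5 lower (edgeR). FCRL1 to FCRL5 are neighbours on chromosome 1, and their products are related in sequence.

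Within the B cell receptor group of 34 tested genes, CD180 and CR2 were called lower and CD72 higher. CD180 (ENSG00000134061, chromosome 5, 67179613 to 67196799), a Toll-like receptor homolog of B cells, was at 100.1, 80.6, 85.4 and 89.1 CPM and 59.01, 42.3, 57.7 and 57.5 CPM (log2 -0.71, SE 0.12, edgeR adjusted p = 0.00584), with Susp replicate 2 lowest. CR2, a complement receptor that acts as a coreceptor of the BCR, fell from 184 ± 12.6 CPM (SD, n = 4) to 119 ± 17.96 CPM (SD, n = 4) (log2 -0.63, SE 0.10, edgeR adjusted p = 0.0055), and without Susp replicate 2 its difference of -0.54 was under the 1.5-fold minimum. CR1, its neighbour on chromosome 1 and also a complement receptor, fell as well, from 50.1 ± 5.18 CPM (SD, n = 4) to 28.96 ± 5.84 CPM (SD, n = 4) (log2 -0.79, SE 0.13, edgeR adjusted p = 0.0059). CD72, an inhibitory coreceptor, rose from 22.9 ± 1.46 CPM (SD, n = 4) to 37.8 ± 5.96 CPM (SD, n = 4) (log2 0.72, SE 0.12, edgeR adjusted p = 0.00604), but with the correction for GC and length its difference of 0.55 was under the minimum. CD79B, CD22 and VAV2 passed the adjusted p-value with smaller differences of 0.55, 0.43 and 0.45, though CD79B did not with the correction (0.26, edgeR adjusted p = 0.0949). BTK, SYK and LYN, kinases next to the receptor, differed by 0.13, -0.02 and -0.08 and were not called. Outside the lists, UBASH3B, a phosphatase that acts on SYK family kinases, fell from 23.1 ± 3.08 CPM (SD, n = 4) to 12.2 ± 1.81 CPM (SD, n = 4) (log2 -0.92, SE 0.15, edgeR adjusted p = 0.00396). GAB2 and PTPN7 fell by 1.64-fold and 1.65-fold.

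Of 11 tested MHC class II presentation genes, CIITA was called lower and none higher. CIITA (ENSG00000179583, chromosome 16, 10866222 to 10943021), the master coactivator of MHC class II genes, was at 42.5, 64.2, 39.02 and 55.4 CPM in Sep and 30.6, 24.9, 30.7 and 28.00 CPM in Susp libraries, a fall by 1.76-fold (log2 -0.82, SE 0.14, edgeR adjusted p = 0.00749). The others were not called, with CD74 at 765 ± 66.8 CPM (SD, n = 4) and 839 ± 79.7 CPM (SD, n = 4) (log2 0.13). None of 17 tested class I genes was called, with a median of 0.19 and 5 higher and 1 lower at an unadjusted p-value under 0.05 (edgeR). HLA genes were counted from uniquely aligned fragments of a polymorphic family. HLA-DRA, at 1.66 ± 1.05 CPM (SD, n = 4), was at a low level that rests on few fragments and is uncertain.

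Genes for adhesion and other cell surface proteins were called in both directions. Of 28 tested integrins and adhesion molecules, PECAM1 and CD82 were called higher. PECAM1, a homophilic adhesion receptor, rose from 19.2, 16.9, 19.98 and 18.7 CPM to 31.9, 26.2, 31.5 and 31.8 CPM (log2 0.70, SE 0.11, edgeR adjusted p = 0.00385), with Susp replicate 2 the lowest Susp library. CD82, a tetraspanin, rose from 58.3 ± 6.34 CPM (SD, n = 4) to 91.1 ± 13.9 CPM (SD, n = 4) (log2 0.64, SE 0.11, edgeR adjusted p = 0.00836), and was under the fold minimum without Susp replicate 2 (0.52) and with the correction (0.46). Both thus stood higher in suspension by less than 2-fold. CHL1 (ENSG00000134121, chromosome 3, 196763 to 409417), a neural cell adhesion molecule of the L1 family, went from 25.7, 21.2, 28.98 and 27.8 CPM to 62.9, 37.6, 56.9 and 62.5 CPM (log2 1.08, SE 0.16, edgeR adjusted p = 0.00157). P2RX1, an ATP-gated channel and the only call of 13 purinergic genes, was at 60.9, 64.01, 56.7 and 64.5 CPM and 104, 126, 110.01 and 97.8 CPM (log2 0.83, SE 0.10, edgeR adjusted p = 0.000549). These values separated the groups without overlap. CNR1, the cannabinoid receptor CB1, fell from 105, 101, 98.97 and 100.4 CPM to 56.2, 37.1, 61.6 and 58.8 CPM (log2 -0.93, SE 0.13, edgeR adjusted p = 0.0013), with Susp replicate 2 lowest. LAPTM5 (ENSG00000162511, chromosome 1, 30732469 to 30757774), a lysosomal protein of leukocytes that promotes turnover of antigen receptors, fell from 87.5, 69.6, 68.8 and 70.7 CPM to 38.9, 40.4, 38.04 and 31.6 CPM (log2 -0.99, SE 0.11, edgeR adjusted p = 0.000251).

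In growth control, CABLES1 and CDKN2D were called higher of 19 tested cyclin D and G1 genes, beside 0.428% called higher among all tested genes. CABLES1 (ENSG00000134508, chromosome 18, 23134564 to 23260470), an adaptor that links cyclin-dependent kinases to tyrosine kinases, was at 31.6, 27.3, 25.7 and 23.7 CPM in Sep and 58.7, 70.01, 50.1 and 53.1 CPM in Susp libraries, a 2.14-fold rise (log2 1.10, SE 0.12, edgeR adjusted p = 0.000262). CDKN2D, which encodes the CDK4 inhibitor p19, was called at log2 0.60, SE 0.14, edgeR adjusted p = 0.0449 but in 1 of 8 leave-one-out fits alone, the one without Susp replicate 4, with differences of 0.44 to 0.67 and adjusted p-values up to 0.154 (edgeR), and it was not called with the correction. CCND1, the driver of MCL, was at 1444 ± 260.04 CPM (SD, n = 4) and 1672 ± 340.3 CPM (SD, n = 4) and was not called (log2 0.21, 95% interval -0.10 to 0.52). No gene was called among 30 of S phase and mitosis, whose median was 0.03, with 4 higher and 2 lower at an unadjusted p-value under 0.05 (edgeR), and MKI67, a proliferation marker, differed by -0.45. PIM2, a survival kinase, rose by 1.59-fold (log2 0.67, SE 0.10, edgeR adjusted p = 0.00296), a call that was lost with the correction for GC and length, whereas none of 15 BCL2 family genes was called (median 0.16, 3 higher at an unadjusted p-value under 0.05, edgeR). DESeq2 called no gene of the S phase and mitosis, BCL2 family and class I lists, whereas it called CABLES1 and CDKN2D (log2 1.09 and 0.59). Over all 12861 tested genes it called 173.

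Single members were called in several further lists. SLC16A4, a monocarboxylate transporter family gene, rose from 4.09, 5.36, 4.18 and 4.47 CPM to 10.2, 10.8, 9.09 and 12.4 CPM (log2 1.23, SE 0.17, edgeR adjusted p = 0.0013) and was the only call of 7. ATF5, a stress-induced transcription factor, rose from 88.8 ± 7.04 CPM (SD, n = 4) to 151 ± 27.5 CPM (SD, n = 4) (log2 0.77, SE 0.13, edgeR adjusted p = 0.00511) as 1 of 27 ATF4 and amino acid stress genes, and with the correction its difference of 0.55 was under the minimum. NLRP7 was 1 of 4 NLRP genes (log2 0.82, SE 0.16, edgeR adjusted p = 0.0202), with the call lost without Sep replicate 1, 2 or 3 or Susp replicate 4 (0.74 to 0.92, adjusted p up to 0.0724, edgeR). Outside the lists, HMCES, which protects abasic sites in DNA, rose by 2.25-fold (log2 1.17, SE 0.17, edgeR adjusted p = 0.00214) with 17.7 CPM in Susp replicate 1 and 25.2 to 26.7 CPM in the other Susp libraries. RNASE6, an antimicrobial ribonuclease, was called at log2 1.11, SE 0.23, edgeR adjusted p = 0.027, and lost the call without Sep replicate 1, 3 or 4 or Susp replicate 2, 3 or 4 (0.97 to 1.23, adjusted p up to 0.101, edgeR). Among lymphocyte genes outside the lists, SRGN, the proteoglycan serglycin, and PLAC8 rose by 1.93-fold and 1.74-fold and CHI3L2, a chitinase-like protein, fell by 1.64-fold, each called in every leave-one-out fit. LCK, a kinase abundant in T cells, was called at 0.68 and lost the call in 7 of 8 such fits (all but the one without Susp replicate 1; 0.59 to 0.73, adjusted p up to 0.159, edgeR) and with the correction. The part of the T cell markers, whose summed level was higher in each Susp library, in the values of LCK and IL7R was not tested.

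Further falls were in genes at low to moderate level. HIVEP3, a zinc finger protein that binds kappa B motifs, fell from 50.02 ± 11.8 CPM (SD, n = 4) to 23.9 ± 4.74 CPM (SD, n = 4) (log2 -1.07, SE 0.19, edgeR adjusted p = 0.00725), TMEM132B from 20.7 ± 2.68 CPM (SD, n = 4) to 8.89 ± 2.19 CPM (SD, n = 4) (log2 -1.21, SE 0.17, edgeR adjusted p = 0.00143) and CHST11, a chondroitin sulfotransferase, from 8.11 ± 1.14 CPM (SD, n = 4) to 3.399 ± 0.952 CPM (SD, n = 4) (log2 -1.27, SE 0.23, edgeR adjusted p = 0.0113). In these 3 genes each Susp library was under each Sep library, as the rule for naming them required. KCNH4, a potassium channel gene, was called at log2 -1.37, SE 0.27, edgeR adjusted p = 0.0194 and lost the call without Sep replicate 3 or 4 or Susp replicate 4 (-1.64 to -1.21, adjusted p up to 0.072, edgeR). IPCEF1 was at log2 -1.12 and lost the call without Sep replicate 1 or 2 (adjusted p up to 0.0596, edgeR). SLC5A5, the iodide transporter, was at -1.12 and lost it without Sep replicate 1, 2 or 4 or Susp replicate 3 or 4 (adjusted p up to 0.15, edgeR). These calls near the threshold thus depended on single libraries. NEB, the giant sarcomeric protein nebulin, was at -1.52 and lost it in 6 fits, all but those without Sep replicate 1 or Susp replicate 4 (-1.85 to -1.31, adjusted p up to 0.155, edgeR). The noncoding gene RP11-829H16.3, at -1.65, lost it in 6 fits, all but those without Susp replicate 1 or 2 (-1.82 to -1.33, adjusted p up to 0.109, edgeR). The library kit did not mark strand, so noncoding genes that overlap others cannot be told apart from them.

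The remaining calls, named here after their values were seen, included genes of B cell maturation and antibody production. MZB1, a chaperone of antibody secretion, and MME, the germinal centre marker CD10, rose by 1.67-fold and 1.62-fold, and IGLC2, a lambda light chain constant gene with near-identical copies, by 1.89-fold. MZB1 was not called without Sep replicate 1 or 3 or Susp replicate 2 (0.54 to 0.83) nor with the correction for GC and length, MME without Sep replicate 2, 3 or 4 or Susp replicate 1, 3 or 4 (0.61 to 0.80), and IGLC2 without Sep replicate 1, 3 or 4 (0.81 to 1.05). FAM129C, expressed in B cells, rose by 1.84-fold from 219.8 ± 49.6 CPM (SD, n = 4) and was called in every leave-one-out fit. Among the lower calls TLE3, a Groucho corepressor, fell by 1.61-fold and FMNL3, a formin that shapes actin, by 1.72-fold, both called in every such fit. CPT1A, which brings fatty acids into mitochondria, fell by 1.52-fold and was under the fold minimum without Sep replicate 1 or 2 or Susp replicate 2 (-0.63 to -0.56). IL1RAP, the shared chain of IL-1 family receptors, at -0.75, lost its call in all 8 fits (adjusted p up to 0.145, edgeR) and with the correction.

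Several pathways known to answer stroma had no called member by edgeR. Since 0.731% of all tested genes were called, lists of 13 to 34 genes without a call are near that share. Of 32 NF-kB components and feedback targets, 4 were higher and 8 lower at an unadjusted p-value under 0.05, with a median of -0.12, and TNFAIP3 passed the adjusted p-value at -0.57 without the fold. Of 28 NOTCH receptors and targets 3 were higher and 1 lower at an unadjusted p-value under 0.05, with a median of -0.01. Of 23 B cell identity transcription factors these counts were 3 and 6 (median -0.09). Cholesterol synthesis and sterol control had 12 of 31 genes higher and 0 lower at an unadjusted p-value under 0.05 (median 0.19). Glycolysis and hypoxia response had 14 of 34 higher and 1 lower (median 0.19). At the same limit 1199 of all 12861 tested genes were higher and 946 lower. GAPDH, a glycolytic enzyme, passed the adjusted p-value at 0.37 without the fold, and with the correction for GC and length it did not (0.12, edgeR adjusted p = 0.557). Heat shock genes had 1 of 27 higher, and none of 13 mitochondrial genome protein genes passed an unadjusted p-value of 0.05 (median 0.06). By DESeq2, called at the same limits, these lists held 1 called gene each for B cell identity, cholesterol and glycolysis. It called none for NF-kB, NOTCH, heat shock and the mitochondrial genome. These counts stand beside 173 DESeq2 calls (90 higher, 83 lower) over all 12861 tested genes.

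**Figure D4:**
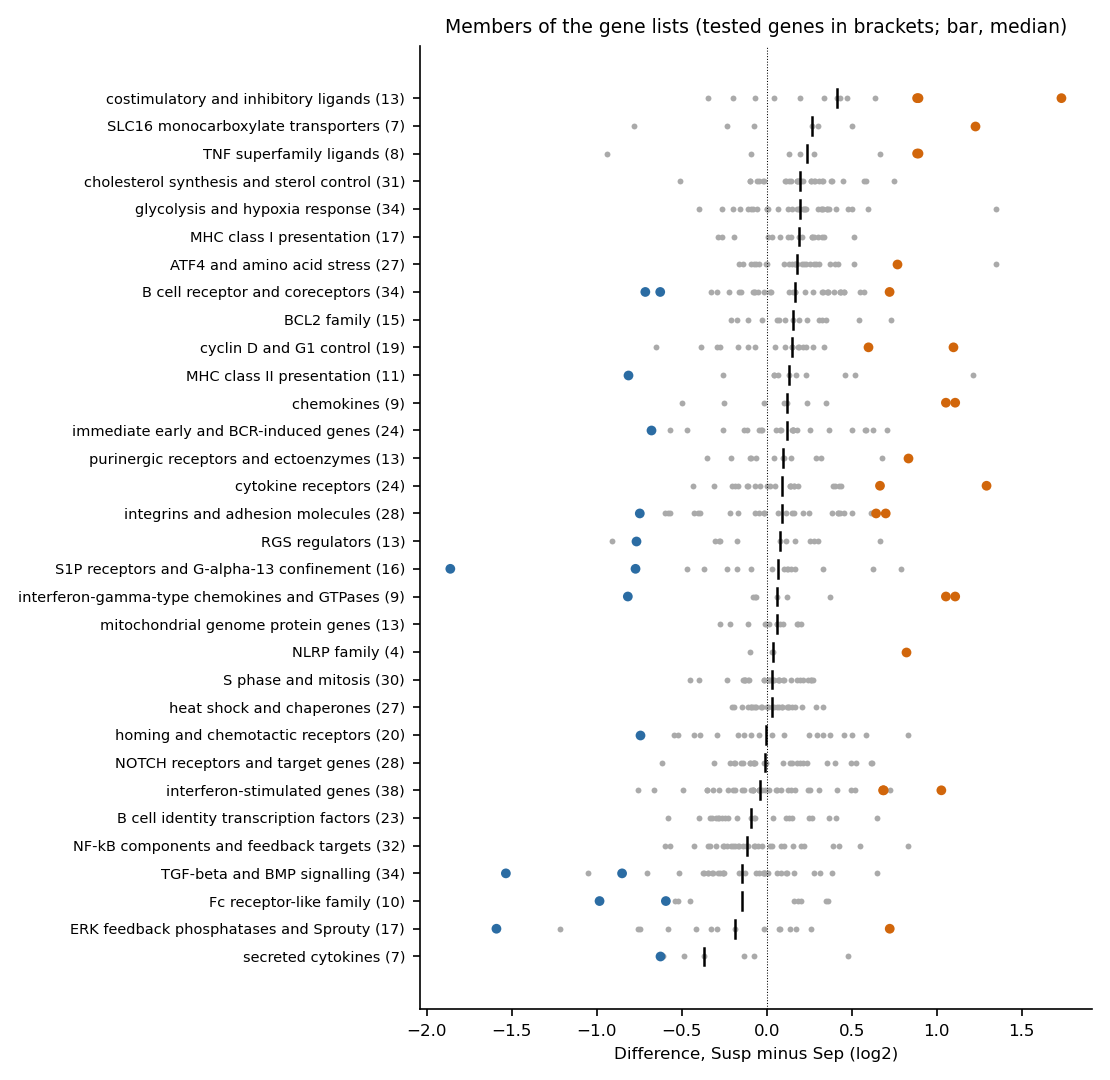
Log2 difference of Susp minus Sep cells (x axis) for each tested member of 32 gene lists (rows, tested genes in brackets), with called genes in colour (orange higher, blue lower) and the list median as a bar. List medians lie between -0.37 and 0.41, and each coloured point is 1 called gene.

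Adherent cells of the same cocultures were set beside these values, with the caution that the comparisons share libraries. The model compared Adh and Susp libraries as unpaired groups. Correlations of deviations by replicate number, given below for Sep and Susp libraries, are not given for Adh and Susp libraries. Between Adh and Susp cells 0.778% of all tested genes were called and between Adh and Sep cells 2.4%. RGS13 was at 52.7, 44.8, 51.01 and 54.9 CPM in the Adh libraries, above every Susp library, with a log2 difference of 1.13 between Adh and Susp cells (SE 0.10, edgeR adjusted p = 2.79e-05) and of 0.35 between Adh and Sep cells (edgeR adjusted p = 0.0659). Every Adh library was above every Sep library as well. CD86 was at 39.01, 53.2, 48.6 and 41.8 CPM in Adh libraries (1.67 against Sep cells, edgeR adjusted p = 5.35e-06), S1PR2 at 2.105, 3.66, 3.08 and 3.85 CPM (-1.69, edgeR adjusted p = 0.000462) and SKIL at 63.9, 52.8, 56.3 and 46.7 CPM (-1.27, edgeR adjusted p = 0.000524). Their Adh minus Susp differences were -0.06, 0.17 and 0.26, with none called. For P2RX1 the Adh libraries, at 69.1, 85.9, 87.1 and 81.6 CPM, lay between the groups, with an Adh minus Susp difference of -0.44 (edgeR adjusted p = 0.0522). SLC16A4 was likewise intermediate at 5.34, 7.61, 7.19 and 7.44 CPM (-0.63 against Susp cells, edgeR adjusted p = 0.0849), and FCRL4 at 54.9, 49.97, 52.3 and 44.5 CPM (0.43, edgeR adjusted p = 0.0659).

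The calls differed in how far they rested on the libraries and settings. Of the 94 genes, 47 were called in each of the 8 leave-one-out fits and 40 in each of the 20 alternative settings. Among genes described above, CD86, CD70, CXCL9, CXCL10, IL7R, IL10RA, CABLES1, P2RX1, PECAM1, S1PR2, RGS13, SKIL, LTBP1, ELK3, FCRL4, CIITA, UBASH3B, LAPTM5 and CNR1 were called in all 20, and no named gene changed direction in any of them. EMILIN2, LRRC32 and TNFRSF18 were called in all 19 settings that tested them.

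**Figure D5:**
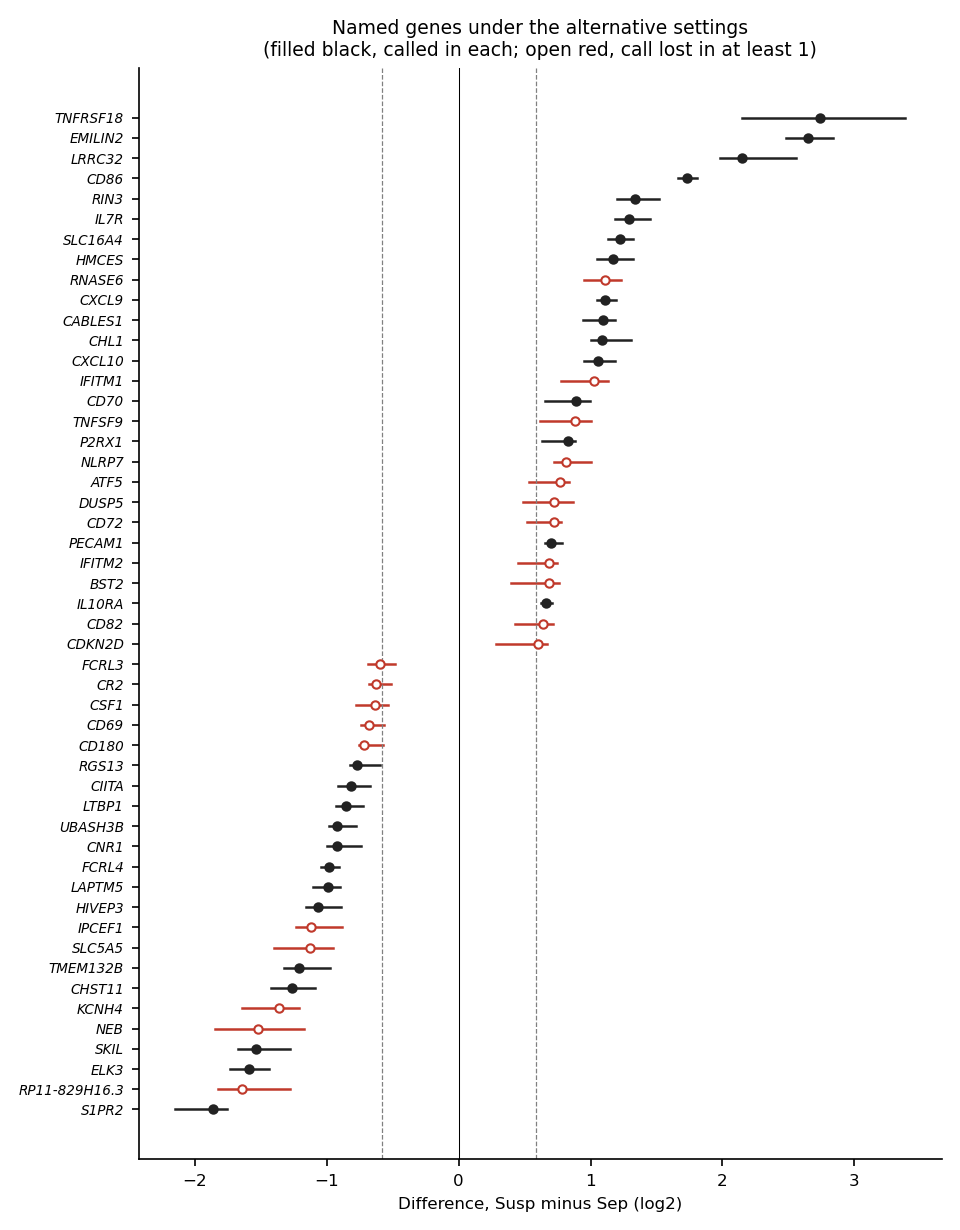
Log2 difference of Susp minus Sep cells (x axis) of named genes, with the value as reported (point) and the lowest and highest value over the alternative settings that tested the gene (line). Dashed lines mark a 1.5-fold change, filled black points are genes called in each such setting, and open red points are genes that lost the call in at least 1.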

How the data were processed

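Poly-A RNA of 12 REC-1 libraries (4 Sep, 4 Susp, 4 Adh) was compared. Per the study's methods, the authors separated human from mouse reads with Xenome 1.0.1, aligned them to GRCh38 with STAR 2.5.1b, discarded multimapped reads and counted fragments per Ensembl 87 gene with featureCounts (Subread 1.5.2), and they deposited these raw counts without normalization. The kit did not mark strand.

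The counts were filtered with filterByExpr, scaled by TMM and tested with edgeR 4.0.16 (R 4.3.3), by the quasi-likelihood F-test with one term per group over all 12 libraries and Benjamini-Hochberg adjustment. Standard errors are the log2 difference divided by the square root of F. CPM are counts scaled to 1e6 of the TMM-normalised library size. Symbols, positions, exon length and GC content came from GENCODE 44 on GRCh38, which held 12773 of the 12861 tested genes. Named genes were the 15 largest rises and falls among called genes with no overlap between groups and a mean of at least 3 CPM in either group, called members of the gene lists, and list members that define a role. Genes outside this rule were named after their values were seen. The members and gene lists were chosen with earlier results of these data known. Promoters were read from GRCh38 at GENCODE 44 canonical starts, where a RefSeq table had been planned. The 17 alternatives set out beforehand and 3 added after seeing the data (GC and length correction, alone, with the replicate block and without Susp replicate 2) included DESeq2 1.42.0. The correction subtracted each library's loess trends (span 0.3) of its log2 values, first on GC content and then on log2 exon length. Library slopes used log2(CPM + 0.5). The scripts were tested on simulated data. Samples of MS-5 alone entered no test, and 24 further columns of the deposited table were not used. With 9325412 to 21467832 fragments per Sep or Susp library, genes near 1 CPM rest on few fragments. Results for a few genes are not reported here.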

Additional observations from a re-analysis of the deposited data

Results flagged for a closer look

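In 9 of the 104 groups of 4 libraries examined (the Sep and Susp libraries of the 52 named genes) 1 library lay far from the other 3 by Dixon's test at the 95% level, where chance flags about 1 group in 20. Susp replicate 2 was that library for 5 genes. It was high for BST2, at 69.77 CPM against 46.07 to 47.51 CPM, and low for PECAM1 (26.18 CPM against 31.51 to 31.86), CD180 (42.29 CPM against 57.48 to 59.01), IPCEF1 (5.286 CPM against 8.562 to 8.99) and RP11-829H16.3 (0.3688 CPM against 1.837 to 2.124). Susp replicate 1 was low for HMCES, at 17.72 CPM against 25.18 to 26.68 CPM. Sep replicate 1 was high for DUSP5 (18.42 CPM against 12.87 to 13.64) and LAPTM5 (87.55 CPM against 68.84 to 70.74). Sep replicate 4 was high for TNFRSF18, at 1.037 CPM against 0.3139 to 0.3347 CPM.

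The difference between adherent and suspended cells of the same cocultures was past the threshold for RGS13, a negative regulator of G protein signalling, at a log2 value of 1.127 (edgeR adjusted p = 2.79e-05), with each of the 4 Adh libraries above each of the 4 Susp libraries.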

How the results depend on the processing

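The count of 94 called genes (55 higher, 39 lower) stayed within 1.5 times under most alternatives. It rose to 175 genes (105 higher, 70 lower) with the replicate number as a block, to 173 (90 higher, 83 lower) with DESeq2 and its size factors, and to 217 (131 higher, 86 lower) with no low-count filter, which tested 28363 genes; the 94 shared 93, 93 and 94 genes with these. Leaving out each library in turn gave 64 to 135 calls, 35 to 74 higher and 27 to 61 lower. With the Sep and Susp libraries alone, without the Adh libraries in the model, 77 genes were called (44 higher, 33 lower). Of these, 75 were among the 94. Named genes that lost the call in that fit were TNFSF9, IFITM1, BST2, DUSP5, CDKN2D, SLC5A5, NEB and RP11-829H16.3. The replicate numbers were not used as pairs. Deviations of same-numbered Sep and Susp libraries correlated at r = 0.37, 0.03, 0.02 and 0.01 across genes, over 0.1 in 1 of 4 pairs. Of the Susp libraries, 1 of 4 correlated best with its own number. Slopes per 10 points of GC content in Sep, Susp and Adh libraries were -0.27, -0.19 and -0.18 for replicate 1. For replicate 2 they were 0.09, 0.20 and 0.11, and for replicates 3 and 4 the signs differed between groups. The model behind the 94 calls has no term for a part shared by replicate number. Over the 52 named genes, 914 values kept their direction and their side of the threshold, 122 kept the direction and missed the threshold, and 0 reversed. Scaling moved the median of all genes by less than 0.1 on the log2 scale. The Susp libraries were deeper than the Sep libraries, and after thinning each library to 7758979 counts 96 genes were called, 83 of them among the 94. The causes of these changes were not tested.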

Other observations

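MS-5 cells grown without REC-1 cells entered no comparison, and their mouse transcripts are given as values over 4 libraries, relative to mouse counts. Among ligands of the receptors that rose in suspended REC-1 cells, Il7 was at 4.10 ± 0.805 CPM (SD, n = 4), whereas Il10 was at 0 in every library. Csf1 was at 708 ± 49.1 CPM and Cxcl12 at 320.1 ± 50.9 CPM, the most abundant of the 19 mouse genes examined. The TGF-beta genes Tgfb1, Tgfb2 and Tgfb3 were at 70.9 ± 1.66, 15.4 ± 2.87 and 18.2 ± 1.56 CPM. Jag1, a NOTCH ligand, was at 7.08 ± 1.27 CPM and Dll4 at 0. The interferon genes Ifng and Ifnb1 were at 0 in each library.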
